A study of Mus musculus with 8 samples.

Results

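The genes described here are a list of hair follicle keratins and follicle regulators: the keratins and associated proteins of the inner root sheath, the companion layer and the hair shaft, and transcription factors and a signal that act in follicle growth. They were taken as a list of names, and the list was chosen with earlier results of these data known. Of 31 listed genes, 30 were found among the 21690 genes of the expression table, and 1 was not analysed here. The 30 genes comprised 9 of the inner root sheath, 1 of the companion layer, 12 of the hair shaft and 8 regulators.

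RNA was measured by RNA-seq in the epidermis of back skin from mouse pups at postnatal day 5, in 4 control and 4 experimental libraries that the labels call biological replicates. ESRP1 and ESRP2 are RNA-binding proteins of epithelial cells that control alternative splicing. Control pups were Esrp1 flox/flox; Esrp2-/- with no Cre listed, and experimental pups were K5rTA tetOCre Esrp1 flox/flox; Esrp2-/-, so that both groups carried the Esrp2-/- genotype and the groups differed in the transgenes as well as in Esrp1. Dams of both groups received high-doxycycline chow from embryonic day 17 to postnatal day 5, which switches on a Cre driven through a keratin 5 transactivator. Keratin 5 is made in the basal layer of the epidermis and in the outer root sheath, so the recombination need not be limited to the follicle. The columns of the expression table name the group but no replicate number of the labels, and the libraries are called control 1 to 4 and experimental 1 to 4 in the order of the table.

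Hair follicles are pockets of the epidermis in which dividing matrix cells at the base give rise to concentric layers. The innermost layers harden into the hair shaft, whose cortex and cuticle are built from hair keratins, and the inner root sheath around it is filled with its own keratins and trichohyalin. Type I and type II keratins pair to form filaments, and Wnt signalling through LEF1 together with the factors HOXC13, FOXN1, MSX2 and DLX3 is known to drive matrix cells towards these fates.

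Levels are given in TPM, a share of all transcripts that is scaled per length, and so can be set side by side between genes. Values at or under 1 TPM are listed at 0 in the deposited table and are printed as 0. Esrp1, the targeted gene, had 131 to 162 TPM in controls against 49.8 to 75.6 TPM in experimental libraries (log2 change -1.13, adjusted p = 0.0112, limma). Esrp2, which both groups are labelled to lack, had 0 to 3.31 TPM in controls against 3.25 to 5.28 TPM in experimental libraries (log2 change 0.73, adjusted p = 0.176, limma). The labels do not say which part of Esrp2 the allele removes, so this does not check the genotype. Between 10401 and 11640 genes exceeded 1 TPM per library. Transcripts of the mitochondrial genome made up 18.2% and 17.5% of TPM in experimental libraries 2 and 4 and 10.6% to 12.6% in the other libraries. The sequencing depth is unknown, because TPM values do not keep it. Epidermal identity was plain in all libraries: the 12 suprabasal keratinocyte markers, among them Krt1 and Krt10, summed to 93883 to 109059 TPM in controls against 119117 to 162026 TPM in experimental libraries.

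The listed genes were abundant and uneven. Together the 30 genes made up 0.972%, 1.97%, 3.26% and 6.59% of all TPM in controls 1 to 4, and 1.64%, 0.231%, 1.01% and 1.04% in experimental libraries 1 to 4. Control 1 lay below experimental libraries 1, 3 and 4, and the other controls lay above all experimental libraries. Fitted across all genes, 29 of the 30 genes passed the filter on low values and were tested; Shh did not pass it. Lhx2 passed it through the control libraries, since its experimental mean was 0.922 TPM. It is kept in the counts that follow, with a change under -1 and an unadjusted p under 0.05 (limma), so those counts are not free of this choice. With a mean of at least 5 TPM, which removed Lef1 and Lhx2, all 27 genes tested were below 0. All 29 log2 changes (experimental minus control) were below 0, as were 74.5% of all 10682 genes tested, and their median was -1.65 against -0.18 for all genes. A change under -1 was found for 27 of the 29 genes and for 3.74% of all genes.

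None of the 29 genes passed an adjusted p of 0.05 in limma, where 2.46% of all genes did (1.54% lower and 0.917% higher). At an unadjusted p under 0.05, 20 of the 29 genes were lower, against 13.4% of all genes. The authors' deposited table, a DESeq2 comparison of the same study's samples and hence not independent, lists 14 of the 30 genes as lower; it also lists 4.72% of the genes tested here. These 14 are 6 hair shaft genes, 4 inner root sheath genes and 4 regulators. The control and experimental libraries did not overlap, with every experimental library lower, for 7 of the 29 genes against 9.94% of all genes. The 7 genes were Krt28, Krt73, Krt32, Msx2, Hoxc13, Foxn1 and Dlx3. In bulk RNA, fewer cells of a layer and less RNA per cell cannot be told apart.

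The outcome of the test rested on which controls entered it. Without controls 1 and 2, 12 of the 29 genes passed as lower against 3.24% of all genes, and without controls 3 and 4, 2 of 30 passed (Krt35 and Lhx2) against 22.0% of all genes. Without control 1, 4 of 29 passed (Krt31, Krt33a, Krt83 and Foxn1) against 1.56%, and without control 4, 2 of 29 passed (Hoxc13 and Lhx2) against 3.91%. Weighting libraries by their spread gave 17 of 29 against 34.4% of all genes.

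**Figure D1:**
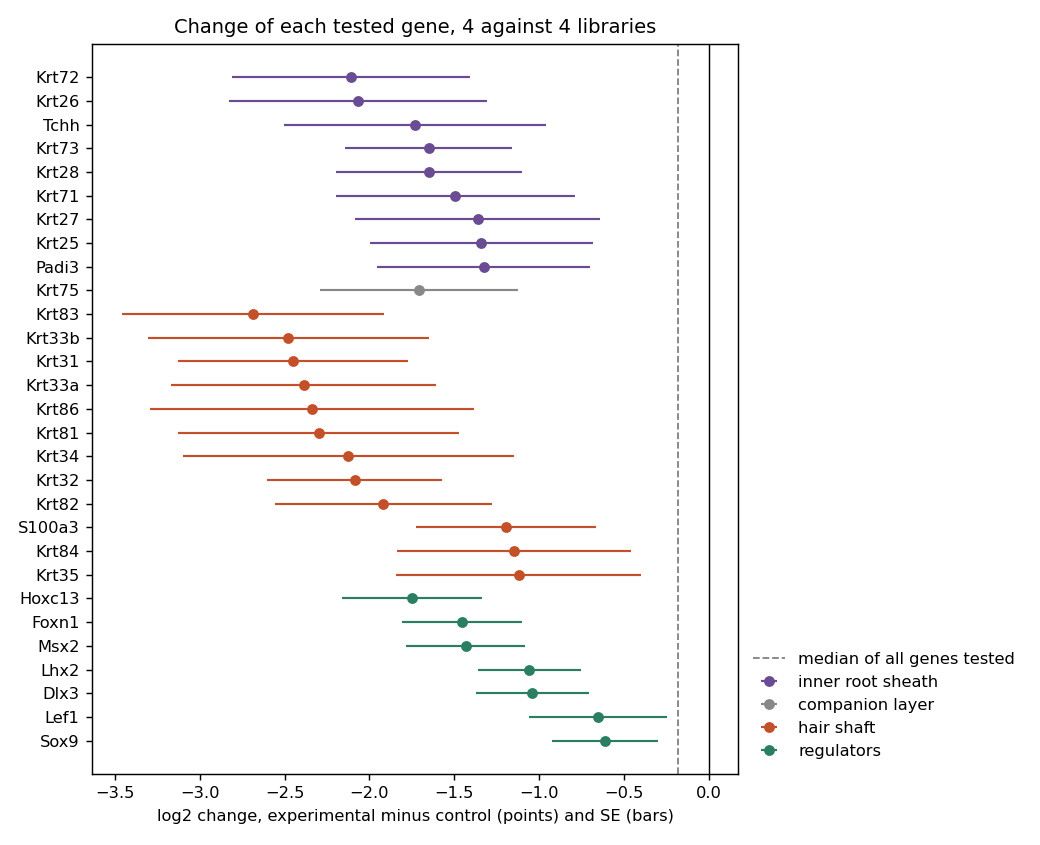
Log2 change (experimental minus control, points) with its standard error (bars) for the 29 tested genes, coloured by follicle layer, from 4 control and 4 experimental libraries. All points lie left of 0, from -2.69 for Krt83 to -0.61 for Sox9, and left of the dashed median of all genes tested at -0.18.

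The inner root sheath genes held the highest levels of the list. Krt25, Krt26, Krt27 and Krt28 encode the type I keratins of this sheath and lie side by side on the minus strand of chromosome 11 (GRCm38, 99315516 to 99374903). Krt71, Krt72 and Krt73 encode type II partners and lie on the minus strand of chromosome 15 (101733949 to 101802346). The promoters of Krt26, Krt71 and Krt73 are shown because they stand for the type I and type II genes of the sheath and each carries TATAAA close to its start. Each run holds the 250 bases before the RefSeq start of the gene (GRCm38.p6), 5′ to 3′ on the strand of the gene; capitals mark TATAAA on that strand and CTTTG, the core bound by LEF1 and its relatives, on either strand (CAAAG where it is on the other strand).
Krt26, chr11:99337966-99338215, minus strand: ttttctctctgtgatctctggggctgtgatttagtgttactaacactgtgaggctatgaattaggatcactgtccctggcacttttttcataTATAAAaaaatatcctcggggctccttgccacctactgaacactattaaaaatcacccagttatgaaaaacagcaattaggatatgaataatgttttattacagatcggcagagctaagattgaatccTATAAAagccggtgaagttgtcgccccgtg
Krt71, chr15:101743098-101743347, minus strand: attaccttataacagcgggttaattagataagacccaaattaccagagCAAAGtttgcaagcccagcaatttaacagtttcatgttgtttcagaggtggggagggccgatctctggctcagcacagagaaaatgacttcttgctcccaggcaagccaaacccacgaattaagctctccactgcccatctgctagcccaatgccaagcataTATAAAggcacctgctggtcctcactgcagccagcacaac
Krt73, chr15:101802361-101802610, minus strand: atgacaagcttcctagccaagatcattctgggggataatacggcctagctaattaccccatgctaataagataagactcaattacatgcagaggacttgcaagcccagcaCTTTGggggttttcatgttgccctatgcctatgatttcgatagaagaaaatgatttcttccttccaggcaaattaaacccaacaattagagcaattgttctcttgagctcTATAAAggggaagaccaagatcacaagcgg
The TATAAA nearest the start begins 30 bases before it in Krt26 and Krt73, and 40 bases before it in Krt71. CTTTG begins 140 bases before the start of Krt73, its other-strand form begins 202 bases before that of Krt71, and neither form is in the Krt26 window.

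Krt71, a type II keratin of all inner root sheath layers, had 1676, 3475, 3524 and 12529 TPM in controls 1 to 4, and 3276, 391, 2173 and 1467 TPM in experimental libraries 1 to 4. Control 4 was far above the other libraries, experimental 2 far below them, and control 1 lay under experimental 1 and 3. The log2 change was -1.49 ± 0.71 (SE; adjusted p = 0.317, limma). Krt25, a type I partner, followed the same order of libraries except that control 1 and experimental 4 changed places, with 1377, 2792, 2972 and 9266 TPM in controls against 2667, 379, 1772 and 1432 TPM in experimental libraries. The log2 difference Krt25 minus Krt71 stayed between -0.44 and -0.25 in controls and between -0.30 and -0.03 in experimental libraries, although each gene varied by several log2 units. Krt27 ranged from 1085 to 9306 TPM in controls and from 306 to 2436 TPM in experimental libraries, with a log2 change of -1.36 ± 0.72 (adjusted p = 0.373, limma).

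Krt72 and Krt73 are keratins of the sheath cuticle. Krt72 had 293, 544, 960.0 and 2827 TPM in controls 1 to 4, and 300.4, 56.8, 267 and 267 TPM in experimental libraries 1 to 4. Only control 1 lay within the experimental range, and the log2 change was -2.11 ± 0.70 (adjusted p = 0.158, limma). Krt73 had 348, 296, 419.7 and 1259 TPM in controls against 200.4, 67.5, 215 and 188 TPM in experimental libraries. Its groups did not overlap, and the log2 change was -1.65 ± 0.49 (adjusted p = 0.115, limma).

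Krt28 also separated the groups without overlap, with 476, 515, 875 and 2301 TPM in controls against 373, 104, 361 and 359 TPM in experimental libraries (log2 change -1.65 ± 0.55, adjusted p = 0.158, limma). Krt26 had 102, 244, 448 and 1301 TPM in controls against 138, 22.9, 117 and 119.8 TPM in experimental libraries (log2 change -2.07 ± 0.76, adjusted p = 0.195, limma). Control 1 lay below 3 of the 4 experimental libraries for Krt26. In the authors' deposited table, Krt72, Krt26, Krt28 and Krt73 are the listed genes of this layer, 5.34-, 5.46-, 3.50- and 3.43-fold lower with adjusted p of 0.0165, 0.0224, 0.0436 and 0.0300.

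Trichohyalin (Tchh), which hardens the inner root sheath and medulla once its arginines are converted to citrulline, reached 1215, 2516, 3508 and 12495 TPM in controls against 2033, 251, 1783 and 1208 TPM in experimental libraries. Padi3, an enzyme that makes this conversion, had 86.9, 173, 256 and 657 TPM in controls against 135, 29.4, 128 and 121 TPM in experimental libraries. For both genes control 1 lay within the experimental range. Their log2 changes were -1.73 ± 0.77 for Tchh and -1.33 ± 0.63 for Padi3 (adjusted p = 0.290 and 0.317, limma).

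Across the 9 genes of the sheath the median log2 change was -1.65, and control 4 was the highest library for all 9. That median was -1.06 without experimental 2, -0.77 without controls 3 and 4, -0.84 without experimental 2 and 4, and -0.67 with library weights. Without controls 1 and 2 it was -2.24. The changes of Krt25, Krt27, Krt71, Tchh and Padi3 were -0.83, -0.82, -0.94, -1.11 and -0.81 without control 4, and -0.76, -0.72, -0.87, -1.06 and -0.81 without experimental 2. Experimental 2 was the lowest of all 8 libraries for all 9. The summed type I keratins stood at 1.31 to 1.54 times the summed type II keratins in controls and at 1.49 to 1.75 times in experimental libraries. That ratio varied little (1.40 ± 0.10 and 1.58 ± 0.12, SD, n = 4 each, TPM) while the sum of the 9 genes ran from 6658 to 51941 TPM in controls and from 1608 to 11559 TPM in experimental libraries.

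**Figure D2:**
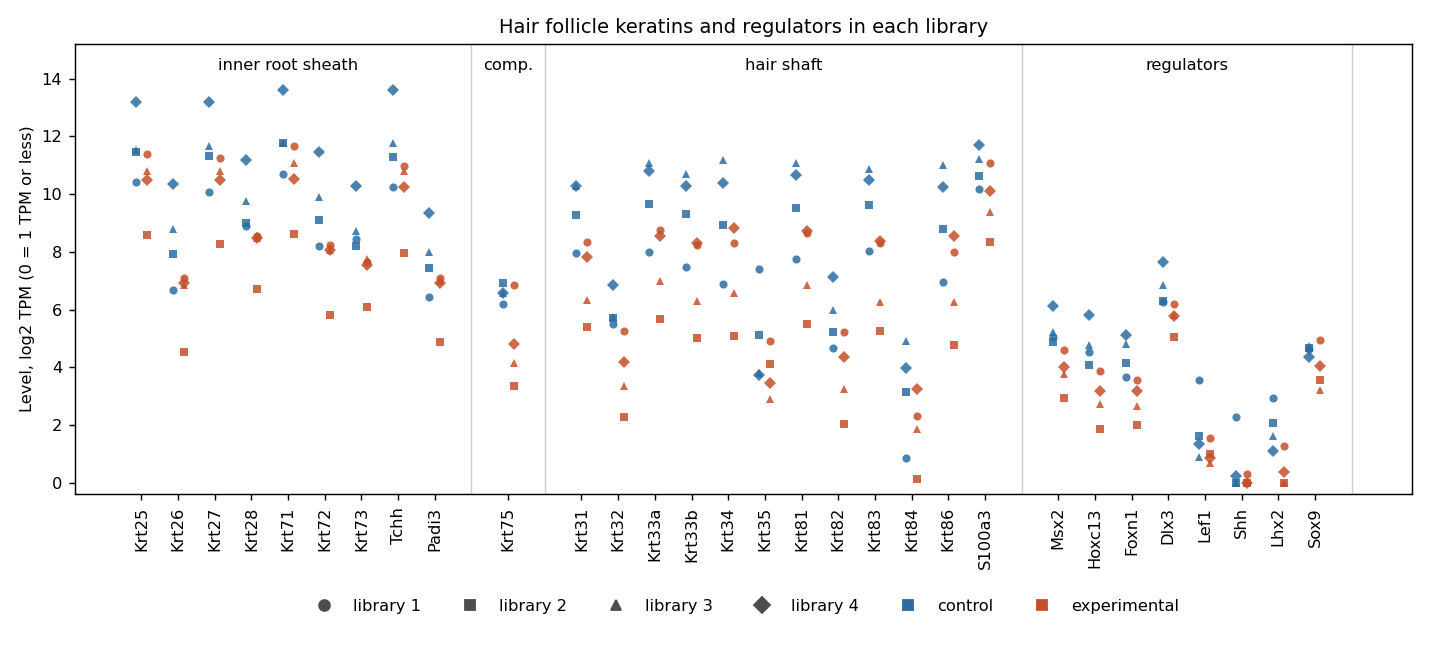
Level of each of the 30 genes in each library on the log2 TPM scale (0 stands for 1 TPM or less), with symbol shape for the library and colour for the group. Control 4 is the highest point of every inner root sheath gene, control 3 that of 8 of the 12 hair shaft genes, and experimental 2 is the lowest point of most genes.

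Krt75, the keratin of the companion layer between the inner and outer root sheaths, showed a different pattern. It had 73.3, 120.5, 95.0 and 94.5 TPM in controls 1 to 4, and 116, 10.3, 17.8 and 28.1 TPM in experimental libraries 1 to 4. Experimental 1 stood among the controls, and the other experimental libraries lay below all of them. The log2 change was -1.71 ± 0.58 (adjusted p = 0.164, limma), and without experimental 1 it was -2.38. In that fit 3 of the 29 genes passed as lower (Krt75, Krt32 and Hoxc13), against 0.819% of all genes. Its log2 SD among controls was 0.29, at the 43.6th percentile of all genes tested, so that it did not share the spread of the sheath and shaft keratins among controls.

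The hair shaft genes had a median log2 change of -2.21 over 12 genes. It was -1.26 without controls 3 and 4, -3.34 without controls 1 and 2, -2.94 without control 1, and -1.61 with library weights. The type I genes Krt31 to Krt35 form a cluster on the minus strand of chromosome 11 (100011195 to 100096241), and the type II genes Krt81, Krt82, Krt83, Krt84 and Krt86 lie on chromosome 15 (101459061 to 101550667). Promoters of Krt31, Krt34 and Krt32 are shown in the same form as those above, because these neighbouring genes of the cortex and cuticle each carry both marked motifs.
Krt31, chr11:100050552-100050801, minus strand: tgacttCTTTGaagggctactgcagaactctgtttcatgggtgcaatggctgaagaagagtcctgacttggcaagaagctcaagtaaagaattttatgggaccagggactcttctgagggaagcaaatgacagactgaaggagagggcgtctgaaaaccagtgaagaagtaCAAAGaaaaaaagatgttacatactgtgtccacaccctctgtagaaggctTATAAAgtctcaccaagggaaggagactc
Krt34, chr11:100041555-100041804, minus strand: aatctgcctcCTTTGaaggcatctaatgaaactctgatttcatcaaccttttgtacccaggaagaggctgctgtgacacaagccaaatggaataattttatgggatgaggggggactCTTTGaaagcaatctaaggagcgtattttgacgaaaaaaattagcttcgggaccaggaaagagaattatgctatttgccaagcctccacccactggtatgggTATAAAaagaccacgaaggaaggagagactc
Krt32, chr11:100088270-100088519, minus strand: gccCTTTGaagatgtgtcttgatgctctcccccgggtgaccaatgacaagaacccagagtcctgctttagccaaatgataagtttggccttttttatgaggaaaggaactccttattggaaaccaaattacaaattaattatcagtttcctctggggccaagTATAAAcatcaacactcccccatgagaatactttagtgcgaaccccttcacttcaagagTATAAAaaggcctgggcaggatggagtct
TATAAA begins 29 bases before the start in Krt31 and Krt32 and 31 bases before it in Krt34, and a further one begins 88 bases before the start of Krt32. In all 3 windows a CTTTG on the strand of the gene lies near the far end, beginning 244, 240 and 247 bases before the start of Krt31, Krt34 and Krt32.

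RefSeq promoter windows of 300 bases (250 before to 50 after the start) were matched for 21 of the 30 genes. TATAAA beginning 40 to 20 bases before the start on the strand of the gene was present in 8 of the 21 windows (38.1%) and in 2.22% of 27025 windows of all genes. Those 8 were Krt25, Krt26, Krt28, Krt71, Krt73, Krt31, Krt32 and Krt34. On either strand of the whole window, TTTAT was present in 17 of 21 (81.0%) against 40.9% of all windows, and TAATT in 13 of 21 (61.9%) against 27.3%. TTTAT overlaps the other-strand form of TATAAA, which itself was in 12 of 21 windows (57.1%) against 14.2%. CTTTG was present in 14 of 21 (66.7%) against 54.0%, and GACGC, the core bound by FOXN1, in 5 of 21 (23.8%) against 27.4%. These letters are a description of the windows, and no binding was measured.

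Krt31, a cortex keratin, had 246, 623, 1237 and 1234 TPM in controls 1 to 4, and 323, 42.2, 81.2 and 228 TPM in experimental libraries 1 to 4. Controls 2 to 4 lay above all experimental libraries, and control 1 lay between experimental 4 and experimental 1. The log2 change was -2.45 ± 0.68 (adjusted p = 0.0945, limma). In the authors' deposited table Krt31 is 4.82-fold lower with an adjusted p of 0.0160.

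Krt32, the type I keratin of the hair cuticle, was the only shaft gene without overlap between the groups. It had 45.5, 51.9, 54.0 and 116 TPM in controls against 37.8, 4.86, 10.3 and 17.99 TPM in experimental libraries (log2 change -2.09 ± 0.52, adjusted p = 0.0655, limma). Krt82, a type II keratin of the cuticle, had 25.3, 37.3, 62.8 and 139 TPM in controls against 37.1, 4.14, 9.42 and 20.5 TPM in experimental libraries. Here control 1 lay below experimental 1, and the log2 change was -1.92 ± 0.64 (adjusted p = 0.158, limma).

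Krt34, a keratin of the upper cortex, varied most among controls, with 118, 483, 2308 and 1332 TPM, and had 319, 34.2, 95.9 and 448 TPM in experimental libraries. Its log2 SD among controls was 1.88, at the 99.1st percentile of all genes tested, and the log2 change was -2.12 ± 0.97 (adjusted p = 0.306, limma). Krt86, a type II cortex keratin, had 124, 444, 2083 and 1207 TPM in controls against 257, 27.1, 77.1 and 378 TPM in experimental libraries. Control 1 lay within the experimental range for both genes.

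Krt83, a type II cortex keratin, had the lowest log2 change of the list, -2.69 ± 0.77 (adjusted p = 0.109, limma). It had 258, 795, 1873 and 1452 TPM in controls against 317, 38.7, 76.3 and 335 TPM in experimental libraries, with control 1 again inside the experimental range. Krt81 had 217, 731, 2154 and 1607 TPM in controls against 407, 45.7, 117 and 421 TPM in experimental libraries. The log2 difference Krt81 minus Krt83 ran from -0.25 to 0.20 in controls and from 0.24 to 0.60 in experimental libraries, without overlap; this pair was picked after its values were seen. Krt33a and Krt33b are close copies of each other, as are Krt81, Krt83 and Krt86, so that the division of reads among the copies is uncertain.

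Krt33a ranged from 257 to 2155 TPM in controls and from 50.5 to 434 TPM in experimental libraries, and Krt33b from 179.7 to 1671 TPM and from 32.3 to 315 TPM. Krt83, Krt33b, Krt33a and Krt81 are 5.63-, 5.11-, 5.01- and 4.73-fold lower in the authors' deposited table, which also lists Krt32 at 3.58-fold lower. Krt84 was the lowest shaft keratin by group mean, although Krt35 lay below it in controls 3 and 4, with 1.79 to 30.3 TPM in controls against 1.09 to 9.42 TPM in experimental libraries. S100a3, a calcium-binding protein of the hair cuticle, was the highest hair shaft gene, with 1151 to 3305 TPM in controls against 328 to 2141 TPM in experimental libraries (log2 change -1.20 ± 0.53, adjusted p = 0.286, limma). Without experimental 2 the log2 change was -0.74 for S100a3 and -0.73 for Krt84; Krt84 was at -0.64 without control 3 and -1.81 without control 1, beside -1.15 with all libraries. The annotated span of S100a3 on chromosome 3 (90560578 to 90602702) overlaps other genes, so that its reads may be shared.

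Krt35, known as an early keratin of the matrix and precortex, ran against its neighbours. It had 169, 34.8, 13.9 and 13.3 TPM in controls 1 to 4, and 30.3, 17.2, 7.48 and 10.95 TPM in experimental libraries 1 to 4. Control 1 was by far its highest library, whereas control 1 was the lowest control for the other 11 hair shaft genes. The log2 difference Krt34 minus Krt35 was -0.51, 3.76, 7.28 and 6.54 in controls and 3.36, 0.95, 3.52 and 5.23 in experimental libraries. The log2 change of Krt35 was -1.12 ± 0.72 (adjusted p = 0.459, limma). It was -0.34 without control 1, and without controls 1 and 2 it was 0.088.

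The ratio of summed inner root sheath to summed hair shaft TPM was 2.38, 2.10, 1.01 and 3.86 in controls, and 2.51, 2.57, 6.39 and 1.80 in experimental libraries. Control 3 was highest in shaft genes relative to sheath genes, and experimental 3 was lowest. The groups overlapped widely (2.34 ± 1.17 and 3.32 ± 2.08, SD, n = 4 each). The summed type I to type II ratio of the analysed shaft keratins was 1.36 ± 0.18 in controls and 1.39 ± 0.15 in experimental libraries (SD, n = 4 each).

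The regulators had a smaller median spread among controls than the sheath and shaft genes. Their median log2 SD among controls was 0.62, against 1.21 for the inner root sheath, 1.41 for the hair shaft and 0.32 for all genes tested. The summed level of the 8 regulators was 195, 175, 241 and 387 TPM in controls against 162, 62.3, 92.9 and 109 TPM in experimental libraries, with no overlap. Their median log2 change over 7 tested genes was -1.06, and 4 of the 7 were lower without overlap between groups, against 9.94% of all genes. That median is the value of Lhx2, which passed the filter on low values through the control libraries. With a mean of at least 5 TPM, which removed Lef1 and Lhx2, the median was -1.43.

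Hoxc13, a homeobox factor that directly controls hair keratin genes, had 23.3, 16.9, 27.2 and 55.7 TPM in controls 1 to 4, and 14.5, 3.61, 6.57 and 9.16 TPM in experimental libraries 1 to 4. Every experimental library was below every control. The log2 change was -1.75 ± 0.41 and had the lowest adjusted p of the list, 0.0584 (limma).

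Msx2, a homeobox factor of matrix and precortex, had 33.3, 29.4, 37.4 and 70.4 TPM in controls against 24.3, 7.63, 13.5 and 16.0 TPM in experimental libraries (log2 change -1.43 ± 0.35, adjusted p = 0.0636, limma). Foxn1, the factor mutated in nude mice, had 12.6, 17.8, 28.3 and 34.4 TPM in controls against 11.9, 4.03, 6.26 and 8.96 TPM in experimental libraries (log2 change -1.45 ± 0.36, adjusted p = 0.0638, limma). For Foxn1 the groups were separated by the small step between experimental 1 and control 1. Dlx3, a homeobox factor of the matrix, inner root sheath and shaft, had 76.9, 77.8, 116 and 200.04 TPM in controls against 73.7, 33.1, 55.7 and 54.9 TPM in experimental libraries (log2 change -1.04 ± 0.33, adjusted p = 0.146, limma). For Dlx3 too, experimental 1 came close to controls 1 and 2.

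The authors' deposited table lists Hoxc13, Foxn1, Msx2 and Lhx2 as 3.48-, 2.83-, 2.61- and 2.74-fold lower, with adjusted p of 0.0138, 0.0222, 0.0349 and 0.0451. At an adjusted p under 0.1, Hoxc13, Msx2, Foxn1, Krt32 and Krt31 passed in limma, 5 of 29 genes against 3.37% of all genes as lower.

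Lef1, the Wnt effector of the precortex, had 11.8, 3.09, 1.84 and 2.54 TPM in controls against 2.90, 1.98, 1.63 and 1.83 TPM in experimental libraries. Lhx2, a factor of hair buds and follicle stem cells, had 7.66, 4.23, 3.08 and 2.17 TPM in controls against 2.39, 0, 0 and 1.30 TPM in experimental libraries. Shh, the signal sent by matrix cells that drives their growth, had 4.84, 0, 0 and 1.18 TPM in controls against 1.25, 0, 0 and 0 TPM in experimental libraries. All 3 genes were highest in control 1, the control in which most sheath and shaft keratins were lowest. Of the other regulators, Msx2, Hoxc13, Foxn1 and Dlx3 were highest in control 4, and Sox9 was highest in experimental 1.

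The log2 changes were -0.65 ± 0.41 for Lef1 and -1.06 ± 0.30 for Lhx2 (adjusted p = 0.443 and 0.109, limma). Control 1 carried the value of Lef1, which was -0.18 without it. Sox9, a factor of the outer root sheath and stem cells, had 24.7, 25.5, 26.7 and 20.5 TPM in controls against 31.0, 11.9, 9.21 and 16.7 TPM in experimental libraries. It was the steadiest listed gene among controls (log2 SD 0.16) and its highest value was in experimental 1. The log2 change was -0.61 ± 0.31 (adjusted p = 0.354, limma), -0.93 without experimental 1 and -0.38 without experimental 3.

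**Figure D3:**
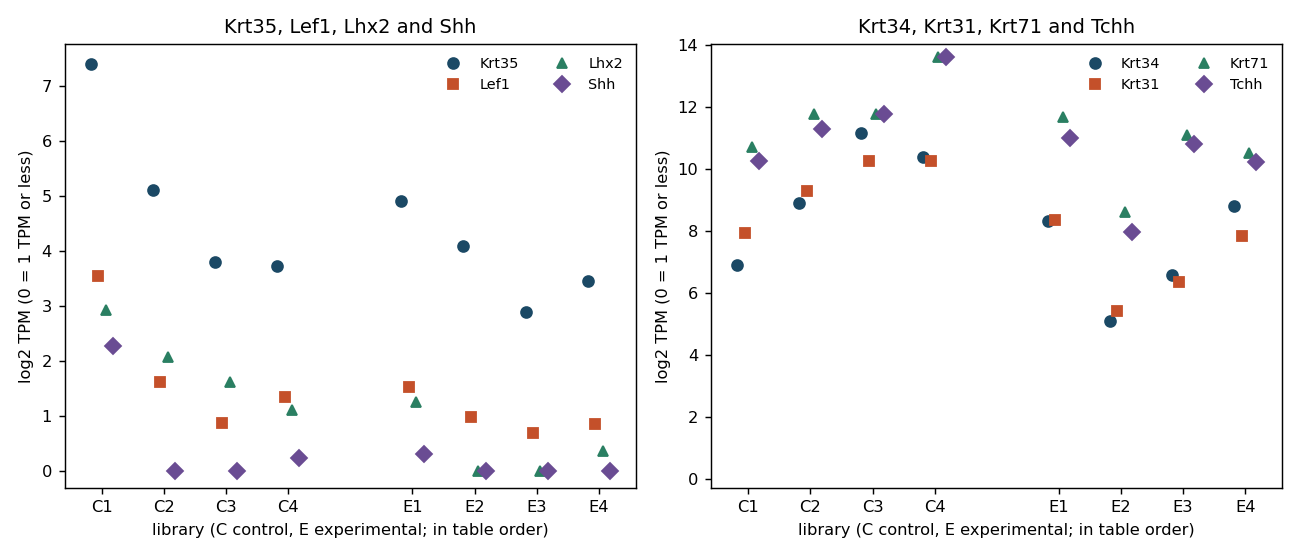
Level on the log2 TPM scale (0 stands for 1 TPM or less) in each library, for Krt35, Lef1, Lhx2 and Shh (left) and for Krt34, Krt31, Krt71 and Tchh (right), with the vertical axes differing in range. The left genes are highest in control 1, and the right genes are lowest among controls in control 1. The regulators Msx2, Hoxc13, Foxn1 and Dlx3, not shown here, are highest in control 4.

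The order of the libraries was shared by most of the list. Among controls, control 1 was the lowest for 22 of the 29 tested genes and control 4 the highest for 16, including all 9 inner root sheath genes; control 3 was the highest for 9, of which 8 are hair shaft genes. Control 1 lay above the mean of controls 3 and 4 for 4 genes, by 3.54 (Krt35), 2.01 (Lef1), 1.27 (Lhx2) and 0.08 (Sox9) on the log2 scale, and below it for 25. Among experimental libraries, experimental 1 was the highest for 22 genes, and experimental 2 was the lowest of all 8 libraries for 25. The median log2 SD of the 29 genes was 1.14 among controls and 1.16 among experimental libraries, against 0.32 and 0.23 for all genes tested.

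Among controls, basal and cell cycle markers fell from control 1 to control 4. With values at or under 1 TPM set to 1 TPM, the mean log2(TPM + 1) of 13 basal keratinocyte markers was 6.27, 5.97, 5.24 and 3.68 in controls 1 to 4, and that of 28 cell cycle markers was 4.04, 3.45, 2.07 and 1.41. The mean of the 9 inner root sheath genes took the opposite order, at 8.91, 9.73, 10.22 and 11.80. In experimental libraries the basal markers lay between 4.39 and 5.25 and the cell cycle markers between 2.23 and 2.49. The summed suprabasal markers, given above, were higher in all experimental libraries than in the controls, without overlap. The part of basal, cycling and suprabasal cells in the differences described here was not tested.

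**Figure D4:**
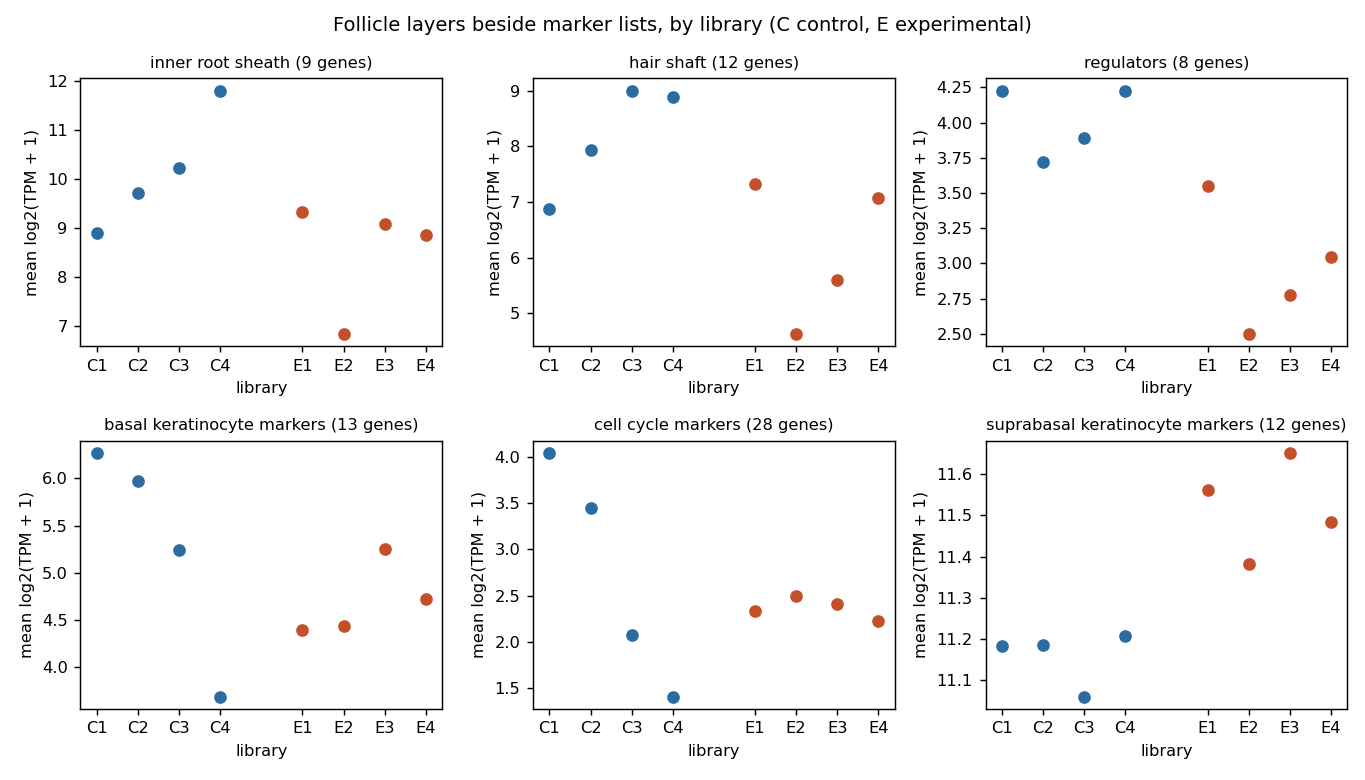
Mean log2(TPM + 1) of 3 follicle lists (upper row) and 3 epidermal marker lists (lower row) in each control (C) and experimental (E) library, with the vertical axes differing in range. In controls the inner root sheath mean goes from 8.91 to 11.80 while the basal mean goes from 6.27 to 3.68. The mean of the regulators does not overlap between the groups, whereas Lef1, Shh, Lhx2 and Sox9 each do.

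Other genes of the follicle were read from lists in the same fit. Of 24 tested genes of further shaft, sheath and follicle keratin-associated functions, Krt16 rose and Selenbp1 fell at the adjusted threshold. Over all genes tested, 0.917% rose and 1.54% fell. The median log2 change of the list was -0.64. A change under -1 was found for 10 of the 24 genes, against 3.74% of all genes. An unadjusted p under 0.05 (limma) was found for 11, against 16.9%. The experimental libraries were lower without overlap for 5, against 9.94%. Krt16, a keratin of the outer root sheath and of stressed epidermis, went from 107, 91.3, 43.9 and 30.2 TPM in controls to 422, 254, 326 and 222 TPM in experimental libraries (log2 change 2.28 ± 0.39, adjusted p = 0.0156, limma). Selenbp1, a selenium-binding protein, went from 15.01 ± 4.17 to 6.26 ± 1.71 TPM (SD, n = 4 each; adjusted p = 0.0366, limma).

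Of 25 tested genes of the Wnt pathway, Nkd1 and Tcf7 fell at the adjusted threshold, where 1.54% of all genes did. At an unadjusted p under 0.05 (limma), 13 of the 25 passed in either direction, against 16.9% of all genes. Nkd1, a feedback inhibitor that Wnt signals induce, had 8.29, 10.7, 17.3 and 13.4 TPM in controls against 6.31, 1.79, 2.44 and 4.11 TPM in experimental libraries (log2 change -1.58 ± 0.32, adjusted p = 0.0305, limma). Tcf7, a DNA-binding partner of beta-catenin related to Lef1, had 8.57, 8.79, 16.0 and 13.2 TPM in controls against 5.76, 2.33, 2.96 and 5.09 TPM in experimental libraries (log2 change -1.35 ± 0.28, adjusted p = 0.0361, limma). Neither gene overlapped between the groups. The experimental libraries were lower without overlap for 7 of the 25 genes, against 9.94% of all genes. They were higher without overlap for 1, as for 288 of all 10682 genes tested. Tcf7l1, among the 7, had 1.63, 1.04, 0 and 0 TPM in experimental libraries. Lgr6, among those with an unadjusted p under 0.05 (limma), had 1.03, 0, 1.44 and 0 TPM there. Both passed the filter on low values through the controls, so these counts are not free of this choice. Both were named after their values were seen.

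In limma, 0 of 5 tested Shh pathway genes, 0 of 15 Bmp and Tgfb genes, 0 of 10 Notch genes, 0 of 4 Eda and NF-kB genes and 0 of 7 FGF, HGF and EGF genes passed. At an unadjusted p under 0.05 the counts were 0, 7, 0, 0 and 1, in either direction, where 16.9% of all genes tested passed. The experimental libraries were lower without overlap for 0, 6, 0, 0 and 1 genes of these lists, against 9.94% of all genes. They were higher without overlap for 1 Bmp and Tgfb gene, as for 288 of all 10682 genes tested. Fgf22, an FGF ligand of the inner root sheath, had 61.5, 75.5, 108 and 211 TPM in controls against 47.2, 30.1, 52.9 and 38.6 TPM in experimental libraries (adjusted p = 0.0933, limma). Of 31 further transcription factors, Grhl1 fell from 178 ± 36.5 to 61.4 ± 13.8 TPM and Grhl3 rose from 33.6 ± 3.14 to 79.8 ± 19.8 TPM (SD, n = 4 each; adjusted p = 0.00770 and 0.0156, limma). Both are grainyhead-like factors of epidermal barrier genes. Over all genes tested, 1.54% passed as lower and 0.917% as higher. Of the 31 factors, 12 had an unadjusted p under 0.05 (limma), against 16.9% of all genes. The median log2 change was -0.46 for the Wnt list, -0.22 for Shh, -0.45 for Bmp and Tgfb, -0.48 for Notch, -0.03 for Eda and NF-kB, -0.48 for FGF, HGF and EGF, and -0.37 for the transcription factors, beside -0.18 for all genes tested.

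Markers of neighbouring cells were counted in the same way. Of 9 tested outer root sheath and bulge markers, and of 13 basal markers, Krt15 fell, from 877 ± 497 to 108 ± 49.9 TPM (SD, n = 4 each; adjusted p = 0.0361, limma). Krt15 is a keratin of bulge stem cells and basal cells and is held by both lists. The outer root sheath and bulge list also holds Lhx2 and Sox9, which are among the follicle genes described above. The median of that list is the value of Sox9. Of 12 tested sebaceous gland markers, Elovl3 and Plin2 fell, Elovl3 from 61.8 ± 8.36 to 16.2 ± 8.45 TPM and Plin2 from 69.0 ± 29.2 to 24.1 ± 6.46 TPM (SD, n = 4 each; adjusted p = 0.0116 and 0.0498, limma). None of the 8 infundibulum and isthmus, 11 suprabasal, 27 cell cycle, 4 fibroblast, 7 melanocyte, 11 immune and 5 endothelial and erythroid markers tested passed in limma. At an unadjusted p under 0.05 those counts were 3, 4, 0, 0, 0, 1 and 0, again beside 16.9% of all genes. For the lists with calls they were 5 of 9 outer root sheath and bulge, 1 of 13 basal and 5 of 12 sebaceous gland markers. Lhx2, in the outer root sheath and bulge count, and Lyz2, the immune marker, passed the filter on low values through the controls. Their experimental means were 0.922 and 0.654 TPM. At the adjusted threshold 1.54% of all genes passed as lower. The median log2 change was -0.61 for outer root sheath and bulge markers, -0.34 for infundibulum and isthmus, -0.41 for basal, 0.44 for suprabasal, -0.40 for cell cycle and -0.86 for sebaceous gland markers.

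Markers of dermal papilla, muscle and endothelial cells were at or near 0. Of 12 dermal papilla markers 9 were at 0 in every library, and their sum reached 7.73 TPM at most in controls and was 0 in all experimental libraries. Of 8 muscle markers 7 were at 0 in every library. Fibroblast markers summed to 18.3 to 163 TPM in controls against 65.0 to 77.9 TPM in experimental libraries, with Lum, Pdgfra and Dpt at 0 throughout. Pecam1, Cdh5 and Kdr, which mark endothelial cells, were at 0 in every library, but the other 5 genes of the list, of red blood cells, were not. The list summed to 181, 9583, 1613 and 195 TPM in controls against 403, 4178, 222 and 1439 TPM in experimental libraries, highest in control 2 and experimental 2. Hba-a1, a globin gene, reached 2449 TPM in control 2 and 1206 TPM in experimental 2, the library in which most of the listed follicle genes were lowest. The part of blood RNA in the follicle values was not tested.

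The authors' deposited splicing table, made with MAJIQ, holds 1203 junction entries in 236 genes. None of the 30 listed genes is among them.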

How the data were processed

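The 8 epidermal libraries of postnatal day 5 were prepared with a NEBNext Ultra kit from RNeasy-purified RNA, per the labels' protocols. STAR, Salmon 0.14.0, SAMtools 1.9 and DESeq are listed in the submitters' processing notes, with GRCm38 and mm10 and no role for any tool. Expression was deposited by the authors as a log2 TPM table, not corrected for batch according to its name. When the lowest entries, listed at 0, were taken to mean 1 TPM or less on a log2 TPM scale, the values gave a ratio to the authors' mean normalized count signal of 0.92 to 1.00 over 5 level bins of 80 genes; read as log2(TPM + 1), the ratio reached 1.51 in the lowest bin. The design assumed log2(TPM + 1), so values were turned back to TPM first.

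The authors' deposited comparison table gives a mean normalized count signal, a log2 fold change, a Wald score and p-values, per the file headers. All 748 rows have an adjusted p under 0.05 and a change below 0. The authors' deposited MAJIQ table gives PSI as a fraction, and its difference and probability as a score, per the file headers, and was used only to look up the listed genes.

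Before the fit, TPM below 1 were raised to 1 and log2(TPM + 1) was taken. The 10682 genes with a mean of at least 1 TPM were fitted with limma 3.58.1 in R 4.3.3, by group alone; tests were two-sided with a variance trend in eBayes, and p-values were adjusted by Benjamini-Hochberg over all genes tested (threshold 0.05). Fold changes on this scale understate those of low genes. Symbols were matched for 21662 of 21690 identifiers, and gene coordinates are those of GENCODE on GRCm38; promoter windows came from RefSeq (GRCm38.p6). The fit was tested on simulated data. Nothing in the labels says whether litters were shared, and the p-values measure the spread between these libraries only. The 30 listed genes that were analysed were named; of each pathway or marker list, up to 4 genes past the threshold, otherwise the 2 of lowest p, could be named. The genes and lists were chosen with earlier results of these data known. The alternatives were pseudocounts, filters, centring, quantile normalization, library weights, no variance trend and left-out libraries.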

Additional observations from a re-analysis of the deposited data

Results flagged for a closer look

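By Dixon's criterion for 4 values, a library was flagged as apart from the other 3 of its group for 13 of the 126 groups of values examined. Chance gives about 1 in 20 such groups for untied values, and the genes are not independent of each other. Values at or under 1 TPM were tied, so the 13 cannot be set against that rate. With the other 3 libraries at 0, as for Shh and Cenpf in experimental 1, any value over 1 TPM is flagged.

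Experimental 2 was the low library of 5 inner root sheath genes. It had 22.9 TPM of Krt26, where the other experimental libraries had 117 to 138 TPM. It had 104 TPM of Krt28 against 359 to 373 TPM. The same library had 56.8 TPM of Krt72 against 267 to 300.4 TPM. For Krt73 it stood at 67.5 TPM against 188 to 215 TPM, and for Padi3 at 29.4 TPM against 121 to 135 TPM. Experimental 2 also had the lowest Rela, a subunit of NF-kB, at 15.5 TPM against 18.7 to 19.1 TPM. Its mitochondrial share was 18.2%, and that of experimental 4 was 17.5%. The part of the mitochondrial share in these values was not tested.

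Control 1 was high for 2 genes of one pathway. Shh had 4.84 TPM there against 0 to 1.18 TPM in the other controls, and Ptch1, the Shh receptor and itself a target of the pathway, had 6.69 TPM against 3.17 to 3.59 TPM. Experimental 1 had 1.25 TPM of Shh and 1.16 TPM of Cenpf, a gene of dividing cells, and both were at 0 in the other experimental libraries.

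Control 4 had 43.8 TPM of Bmp7 against 21.1 to 23.8 TPM. Experimental 3 had 2.31 TPM of Lfng against 1.35 to 1.46 TPM, and experimental 4 had 1.56 TPM of Lyz2 against 0 to 1.06 TPM.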

How the results depend on the processing

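No paired analysis was possible because the columns of the expression table carry no replicate number that matches the labels. The number of listed genes below the adjusted p of 0.05 was 0 in the fit reported and went to 17 with library weights, 12 without controls 1 and 2, and 2 without controls 3 and 4. At an adjusted p under 0.1 it was 5. Leaving out a single library gave 0 to 4 (4 without control 1, 3 without experimental 1 and 2 without control 4). Pseudocounts, filters, centring, quantile normalization, no variance trend and leaving out experimental 2 and 4 gave 0. Over all genes, 263 passed (98 higher, 165 lower). The count was 4423 with library weights, 119 with no filter, 544 without controls 1 and 2, 2595 without controls 3 and 4, 15 without experimental 2 and 4, and 85 to 578 without 1 library. The cause of these shifts was not tested. Centring gave 283 higher and 102 lower genes and quantile normalization 269 and 117. They moved the median of all genes from -0.18 to 0.03 and 0.02, and all 29 listed genes stayed below 0, with medians of -1.44 and -1.54.

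The median log2 change of the listed genes, -1.65, was -1.06 with library weights and without controls 3 and 4; medians of the inner root sheath and hair shaft that moved as far are given with those layers. The regulators' median log2 change was -1.06. It was -1.43 with a mean of at least 5 TPM, -1.46 with a pseudocount of 0.1 TPM and -1.53 without controls 1 and 2; the stricter filter removed Lef1 and Lhx2, and the cause of the others was not tested. Among the listed genes and the medians of their layers, the only change of sign was in the log2 change of Krt35, at 0.088 without controls 1 and 2. Of the genes of the follicle pathway lists 6 passed; the count was 66 with library weights, 1 with no filter, 15 without controls 1 and 2, 34 without controls 3 and 4, 0 without experimental 2 and 4, and 1 to 16 without 1 library. Of the marker lists Krt15, Elovl3 and Plin2 passed in the fit reported. The marker counts were 74 with library weights, 1 with no filter, 57 without controls 3 and 4, 0 without experimental 2 and 4, and 1 to 12 without 1 library. Of all genes, 34.4% passed as lower with library weights and 22.0% without controls 3 and 4. The depth is unknown, levels at or under 1 TPM cannot be ranked, and 4 libraries per group with a median log2 SD of 1.14 among controls set the precision.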
